A study of Mus musculus with 16 samples.

Results

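The core circadian clock genes are the transcription factors and repressors that time daily gene expression in nearly every mouse cell. The 10 genes Arntl (also called Bmal1), Npas2, Clock, Per1, Per2, Per3, Nr1d1, Nr1d2, Dbp and Tef were described here, out of 19096 genes that a RefSeq symbol could be given to. Together they had 17 of the 41174 probes on the array, all of which were read through the RefSeq accession of the probe. The genes were chosen by earlier readings of their differences between the groups on these same arrays. Those differences are therefore given as a description, with no test of a member's difference between groups. A gene was counted by its brightest probe, the one with the highest mean signal over the 16 arrays.

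RNA from mouse liver outside tumours was hybridised to 16 Agilent arrays of 1 colour, 1 array per mouse, in 4 groups of 4 male mice. Every mouse received the liver carcinogen N-diethylnitrosamine (DEN) at 90 mg/kg and 5 weeks of age, and every liver was taken at 57 weeks. WT DEN mice were C57BL/6J wild type mice with DEN alone, and WT DEN + PB mice also drank phenobarbital (PB), which activates the nuclear receptor CAR, at 0.5 g/l from 7 weeks of age. The mice of both KO groups carried the Gadd45b null allele (tm1Flv) and received the same treatments. The name of their stock lists another strain with C57BL/6, while the study's text elsewhere calls the null mice C57BL/6J. DEN was thus common to all 4 groups, and no untreated liver was analysed here. The hour at which each liver was taken, the lighting and the feeding state were not given in the sources used here, so hour and group cannot be told apart.

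As background, the liver clock is a loop of activators and repressors. ARNTL pairs with CLOCK or NPAS2 and binds E-box sequences, which turns on Per, Cry, Nr1d1, Nr1d2, Dbp and Tef. PER and CRY proteins then block ARNTL, and the NR1D receptors (REV-ERB alpha and beta) repress Arntl, Npas2 and Clock through ROR elements. DBP and TEF bind D-box sequences and carry the rhythm to genes of metabolism and detoxification. In a daily cycle the messages of Arntl and Npas2 therefore peak at about the opposite phase to those of Dbp and Nr1d1.

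The sequences below are given because they match the letters that these factors are known to bind. RefSeq promoters of assembly GRCm38.p6 were searched over the 250 bases before each transcription start, on both strands, for the E-box CACGTG, the related CACGTT, the D-box TTANGTAA and the ROR element TAGGTCA. The table held 14 starts of 9 members. CACGTG stood before Per1 and before both starts of Tef, CACGTT before Nr1d1, and the D-box before Per3, while TAGGTCA stood before no member in these windows. For comparison, 6.02% of all 32851 promoter windows held CACGTG, 3.85% CACGTT, 2.06% the D-box and 2.23% TAGGTCA. In the windows of 30 bases below, on the strand of the gene, capitals mark the motif, and these matches describe letters and are no evidence of binding.
Per1, E-box, chr11:69098771-69098800, plus strand: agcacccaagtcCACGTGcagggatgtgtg
Tef, first start, E-box, chr15:81802534-81802563, plus strand: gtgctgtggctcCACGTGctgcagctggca
Tef, second start, E-box, chr15:81811264-81811293, plus strand: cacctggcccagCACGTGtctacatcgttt
Nr1d1, CACGTT read on the other strand, chr11:98775388-98775417, minus strand: cgcacagatctcAACGTGccggctgctgga
Per3, D-box nearer the start, chr4:151044805-151044834, minus strand: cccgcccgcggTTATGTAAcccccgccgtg
Per3, D-box farther away, chr4:151044852-151044881, minus strand: cgacccgcgcgTTATGTAAggtactcgggg
Ciart and Cry1, loop genes outside the 10 that are described further on, held CACGTG in the same span, Ciart at 3 places.
Ciart, E-box nearest the start, chr3:95882255-95882284, minus strand: cgtgcagaaccgCACGTGtctgggaggggg
Cry1, E-box, chr10:85185097-85185126, minus strand: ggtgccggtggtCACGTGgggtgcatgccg

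Signals are given as log2 of the processed signal relative to the 75th percentile of the same array, so that 1 unit is a doubling and 0 is that percentile. A probe was tested where at least 1 group had it well above background on each of its 4 arrays. Of the 10 genes 9 passed, through 15 of the 17 probes, and Per3 did not. The labels were borne out by the array: Gadd45b was at least 23.6-fold lower in KO DEN than in WT DEN (adjusted p = 4.93e-08, limma) and at least 44.8-fold lower in KO DEN + PB than in WT DEN + PB (adjusted p = 1.02e-08, limma). Cyp2b10, the classic CAR target, was higher with PB by 6.69 ± 0.62 (SE) log2 units in WT (adjusted p = 1.48e-05, limma) and 6.80 ± 0.62 in KO (adjusted p = 1.14e-05, limma). All 5 hepatocyte markers with a probe were well above background on every array.

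In KO livers Arntl, an activator of the loop, was lower with PB and most targets of the loop were higher. Arntl was lower by over 2 log2 units, Dbp was higher by over 4, and Nr1d1, Nr1d2, Tef, Per1 and Per2 were higher by 0.94 to 1.78. Npas2 also read lower, but it was tested only because it was above background in KO DEN. Its sign depended on how background was handled. In WT livers the fitted PB differences of these genes were no more than 0.46 in either direction. Under DEN alone KO livers already differed from WT livers, chiefly through Dbp and Nr1d1, with differences of -3.41 and -1.66.

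**Figure D1:**
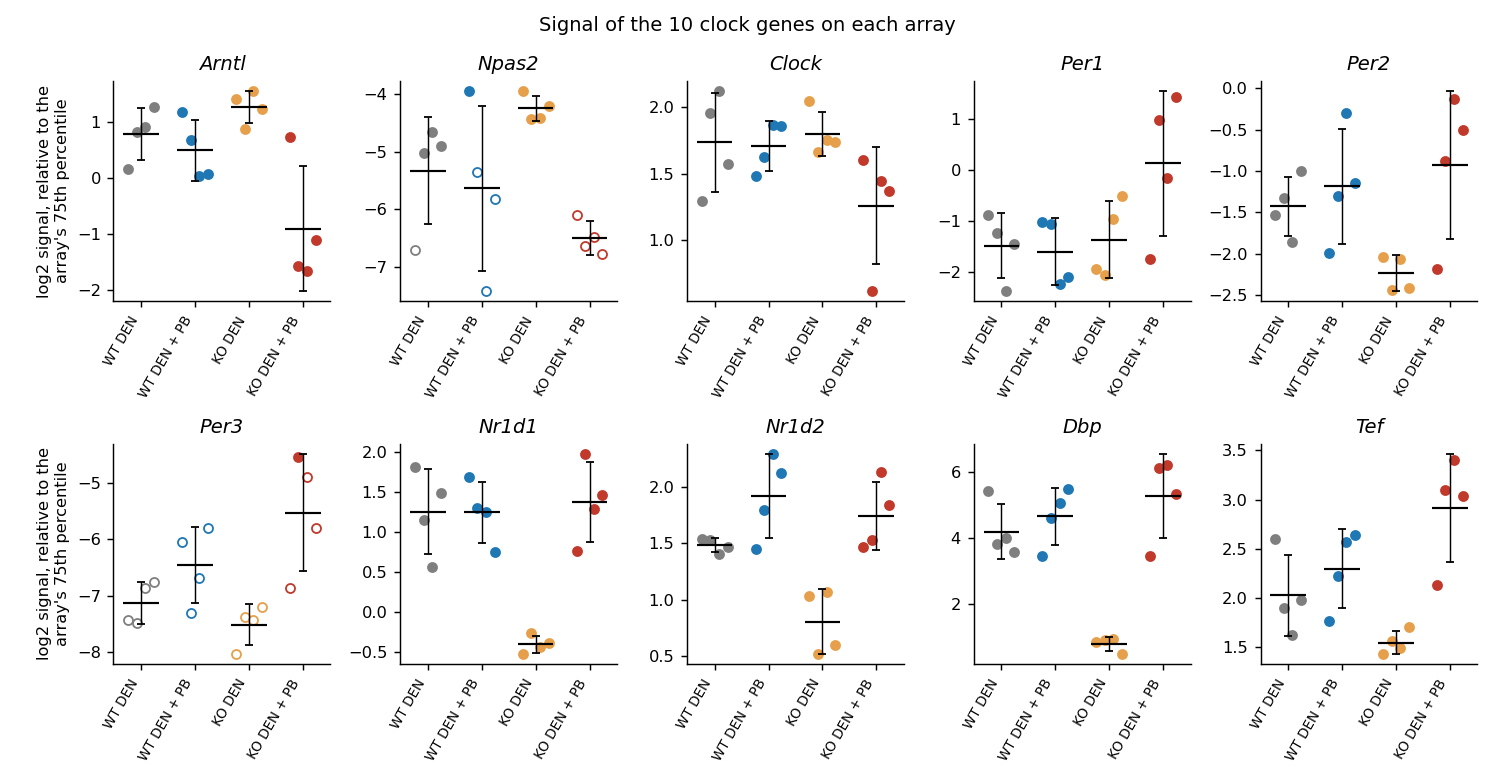
Log2 signal, with the 75th percentile of each array at 0 (y axis, a scale of its own for each gene) of the 10 clock genes on each of 4 arrays per group; bars are the mean ± SD, and open circles are arrays on which the probe was not well above background. The 4 KO DEN arrays of Dbp lie between 0.48 and 0.92 and all 12 others between 3.45 and 6.22, and KO DEN + PB replicate 1 lies apart from the other 3 arrays of its group for Arntl, Dbp and Per1.

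Arntl encodes the activator that the loop cannot run without. Its log2 signal was 0.16, 0.82, 0.91 and 1.26 in WT DEN, 1.17, 0.68, 0.03 and 0.08 in WT DEN + PB, 1.41, 0.88, 1.55 and 1.23 in KO DEN, and 0.73, -1.58, -1.67 and -1.10 in KO DEN + PB. All 4 KO DEN + PB arrays lay below all 4 KO DEN arrays, and 3 of them below every other array of the series. The fitted difference with PB was -2.17 ± 0.43 (SE) in KO, a 4.5-fold lower signal, and -0.30 ± 0.43 in WT. Without KO DEN + PB replicate 1 it was -2.71 in KO.

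Clock encodes the usual partner of ARNTL and in the liver varies little over the day. It read 1.29, 1.95, 2.12 and 1.57 in WT DEN, 1.49, 1.62, 1.87 and 1.86 in WT DEN + PB, 2.04, 1.66, 1.75 and 1.74 in KO DEN, and 1.61, 0.62, 1.44 and 1.37 in KO DEN + PB. The KO groups did not overlap, but the gap between 1.61 and 1.66 was narrow and replicate 2 alone was far down. The fitted difference in KO was -0.54 ± 0.22, and the other 2 probes of Clock gave -0.96 ± 0.27 and -0.50 ± 0.19.

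Npas2 encodes the alternative partner and was dim on this array. In KO DEN it read -3.96, -4.43, -4.41 and -4.20, all well above background, and in KO DEN + PB -6.09, -6.63, -6.48 and -6.78, none of them above it. Because of that the probe gives only a bound, at least 1.62-fold lower with PB in KO, beside a fitted difference of -2.24 ± 0.54. In WT it was above background on 3 arrays with DEN (-5.03, -4.66 and -4.91, against -6.71 on replicate 1) and on 1 with PB (-3.95, against -5.35, -7.42 and -5.83). The sign in KO turned to 0.07 when the background was estimated by normexp, so the Npas2 difference depended on how background was handled.

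The Per genes encode the repressors that accumulate as the activators act. Per1 read -0.88, -1.23, -2.38 and -1.45 in WT DEN, -1.01, -1.06, -2.23 and -2.10 in WT DEN + PB, -1.94, -2.05, -0.95 and -0.50 in KO DEN, and -1.74, 0.99, -0.16 and 1.45 in KO DEN + PB. Replicates 2, 3 and 4 of KO DEN + PB lay above every other array, while replicate 1 lay within the KO DEN range. Its fitted difference with PB in KO, 1.5 ± 0.58, was the least precise of the members and was 2.12 without that replicate.

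Per2 read -2.03, -2.43, -2.06 and -2.41 in KO DEN, against -2.19, -0.88, -0.13 and -0.51 in KO DEN + PB, where replicate 1 again fell within the KO DEN range. In WT it read -1.54, -1.32, -1.86 and -1.0 with DEN and -1.99, -1.30, -0.30 and -1.15 with PB, which overlap. The difference with PB in KO was 1.31 ± 0.38, and 0.94 ± 0.32 by the second probe.

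Per3 was well above background on 1 of 16 arrays, KO DEN + PB replicate 2 at -4.54, and was not fitted. Its other arrays spread from -8.03 to -4.89, where dim spots give no reliable order. The KO DEN arrays read -8.03, -7.38, -7.42 and -7.20.

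Nr1d1 encodes REV-ERB alpha, the repressor of Arntl. The 4 KO DEN arrays read -0.53, -0.26, -0.44 and -0.39, and no other array of the series was below 0.56. The values were 1.82, 1.15, 0.56 and 1.5 in WT DEN, 1.69, 1.30, 1.26 and 0.75 in WT DEN + PB, and 0.77, 1.98, 1.29 and 1.46 in KO DEN + PB. Thus the KO group with PB overlapped both WT groups and the KO group without PB stood alone. The fitted difference was 1.78 ± 0.27 with PB in KO and -1.66 ± 0.27 for KO against WT under DEN. The other probes of Nr1d1 gave 1.54 ± 0.30 and 0.88 ± 0.26 in the first comparison and -1.0 ± 0.30 and -0.85 ± 0.26 in the second.

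Nr1d2, encoding REV-ERB beta, had the same shape at a smaller size. It read 1.03, 0.52, 1.07 and 0.59 in KO DEN against 1.47, 1.53, 2.13 and 1.84 in KO DEN + PB, 1.53, 1.53, 1.41 and 1.46 in WT DEN, and 1.45, 1.80, 2.29 and 2.13 in WT DEN + PB. KO DEN was again the group apart. The differences were 0.94 ± 0.20 with PB in KO, 0.43 ± 0.20 with PB in WT, and -0.68 ± 0.20 for KO against WT under DEN.

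Dbp encodes a D-box activator with one of the steepest daily rhythms of the liver, and its range was the widest of the members. It read 0.85, 0.91, 0.92 and 0.48 in KO DEN, but 3.45, 6.12, 6.22 and 5.33 in KO DEN + PB, 5.42, 3.81, 4.00 and 3.58 in WT DEN, and 3.47, 4.62, 5.07 and 5.49 in WT DEN + PB. The KO DEN arrays lay close to each other and below all 12 others, the lowest of which was at 3.45, and the other 3 groups overlapped. Dbp differed by 4.49 ± 0.55 with PB in KO, a 22.5-fold difference, by -3.41 ± 0.55 for KO against WT under DEN, and by 0.46 ± 0.55 with PB in WT.

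Tef encodes a relative of DBP with a flatter rhythm. It read 1.43, 1.57, 1.49 and 1.70 in KO DEN, but 2.13, 3.1, 3.40 and 3.04 in KO DEN + PB, 2.60, 1.90, 1.62 and 1.98 in WT DEN, and 1.76, 2.22, 2.56 and 2.64 in WT DEN + PB. The KO groups did not overlap, while WT DEN replicate 3 fell among the KO DEN arrays. The difference was 1.37 ± 0.27 with PB in KO, and 0.94 ± 0.24 by the second probe that was tested.

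Counted by the rule of an adjusted p under 0.05 and at least 1.5-fold, 6 of the 9 genes passed for PB in KO, 4 higher (Dbp, Nr1d1, Nr1d2 and Tef) and 2 lower (Arntl and Npas2). Npas2 was tested only because it was above background on all 4 arrays of KO DEN, so its lower value with PB is partly fixed by that filter, and 5 of 8 passed without it. Of all 13303 genes tested, 2.12% passed in that comparison, 1.26% higher and 0.864% lower. The members' median difference was 1.31 on the log2 scale, against 0.01 for all genes. For PB in WT 0 of 9 passed, with 1 at an unadjusted p under 0.05, against 0.737% of all genes. For KO against WT under DEN, Dbp and Nr1d1 passed, both lower, against 2.73% of all genes (1.71% lower), and under DEN + PB 0 passed (3 at an unadjusted p under 0.05) against 7.55%. These comparisons chose the genes, and nothing further is read from their counts.

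The arrays of both groups did not overlap for 7 of 9 members with PB in KO, against 8.60% of all genes, and for 5 of 9 in KO against WT under DEN, against 11.0%. Npas2, chosen by the filter through KO DEN, is in both counts, which are 6 of 8 and 4 of 8 without it. There was no such member for PB in WT, against 5.16% of all genes, or for KO against WT under DEN + PB, against 17.4%. The difference between the PB effects of WT and KO was widest for Dbp, at -4.03 (WT minus KO), and passed for 0 of 9 members and for 0% of all genes, while 5 members had an unadjusted p under 0.05. Both PB effects on Dbp are thus given side by side, and they were not called different.

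**Figure D2:**
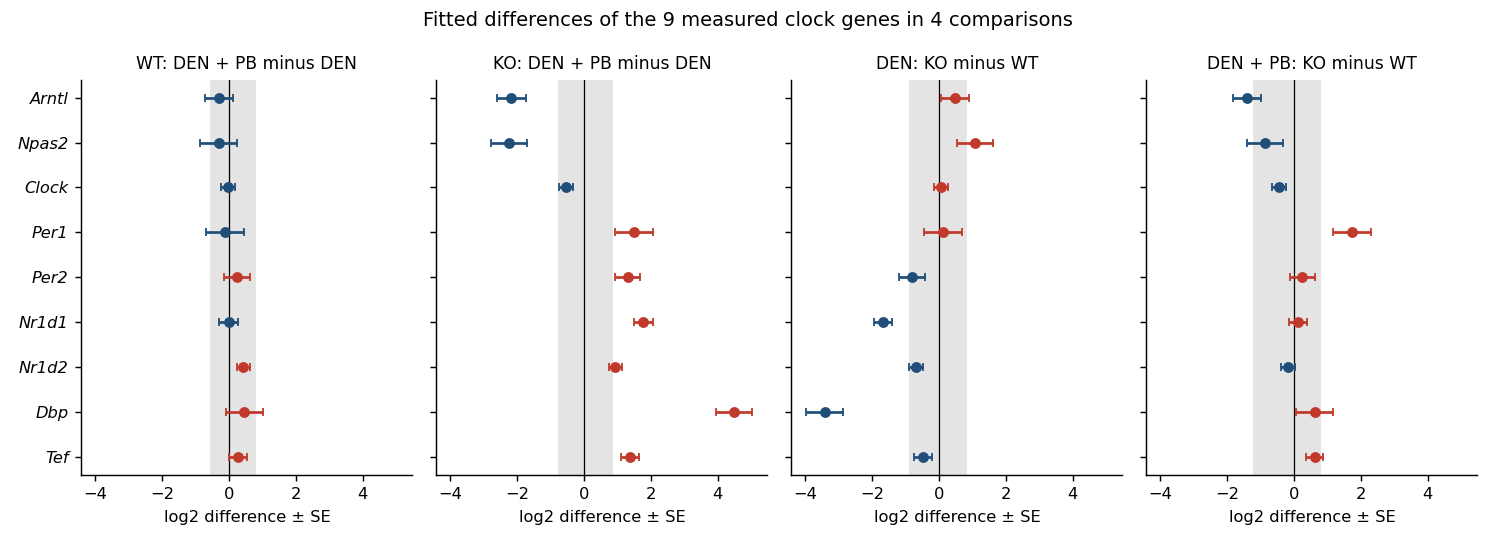
Fitted log2 differences ± SE (x axis) of the 9 clock genes tested in 4 comparisons over 16 arrays; red is higher, blue is lower, and the grey band holds the middle 95 percent of all 13303 genes tested. In WT no gene lies beyond 0.46 in either direction, in KO with PB Dbp lies at 4.49 and Arntl at -2.17, and under DEN Dbp lies at -3.41 in KO against WT.

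KO DEN + PB replicate 1 stood apart from its group in 1 direction of the loop. It was 1.63 above its group mean in Arntl, and in Dbp, Per1, Per2 and Tef its deviations were -1.83, -1.88, -1.26 and -0.79. It was the only KO array on slide 2. Without it 7 of 9 members passed for PB in KO (Per1 and Per2 joined and Npas2 left), against 2.20% of all genes. Under DEN + PB, 3 passed in KO against WT (Arntl, Per1 and Tef), against 7.43% of all genes. For the difference between the PB effects Dbp passed without it, and it was 1 of 4 genes that did so among all tested, or 0.0301%. With every array in the fit, none of the genes tested passed for that difference. Replicate 1 was picked out by the values of these same members. The counts without it are therefore a description and no test. The arrays lay on 4 slides, and within slides 1, 3 and 4, which held both KO groups but not this replicate, every tested member kept its direction. Dbp was 4.42, 5.27 and 5.52 higher with PB there, and Arntl -1.98, -2.99 and -3.05.

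A question that the group differences do not answer is whether the genes also moved together between mice of the same group. It was addressed with the deviation of each array from its group mean. The members were chosen by differences between groups, but calls of such differences also depend on the spread within groups. The choice was therefore not independent of these deviations, and each p value of a member below is read with that limit. Each of the 8 other tested members was fitted on the Arntl deviation, together with all genes tested. Dbp fell as Arntl rose, by 1.22 ± 0.14 (SE) log2 units for each unit of Arntl (adjusted p = 0.00486, limma), and it was the only 1 of 13302 genes to pass, or 0.00752%. Over 28 alternatives the slope kept its sign and ran from -1.47 to -0.67, with adjusted p from 0.000287 to 0.744.

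The size of the Dbp slope held without the array farthest out in Arntl, but its call did not. Without KO DEN + PB replicate 1 the slope was -1.40 with an adjusted p of 0.561 (limma), and without the 2 arrays farthest out in Arntl, replicates 1 and 3 of that group, -1.40 with 0.744 (limma). With slide as a block it was -1.23 with 0.394 (limma). Among the 8 WT arrays, the 3 lowest in Arntl (0.03, 0.08 and 0.16) read 5.07, 5.49 and 5.42 for Dbp, and the 2 highest (1.17 and 1.26) read 3.47 and 3.58. In KO DEN, by contrast, Arntl spanned 0.88 to 1.55 while Dbp spanned only 0.48 to 0.92.

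Of the remaining members, 5 had a negative slope on Arntl and 2 a positive one, and none passed. Tef had -0.53 ± 0.09 (adjusted p = 0.182, limma), Per2 -0.61, Per1 -0.52, Nr1d1 -0.23 and Nr1d2 -0.19, against 0.75 for Npas2 and 0.16 for Clock. In all 4 members, Dbp included, had an unadjusted p under 0.05. The sign for Per1 turned to 0.62 and that for Nr1d1 to 0.03 without KO DEN + PB replicate 1. The other probes of Nr1d1 had slopes of 0.19 and -0.25, so its relation to Arntl within groups was not settled.

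**Figure D3:**
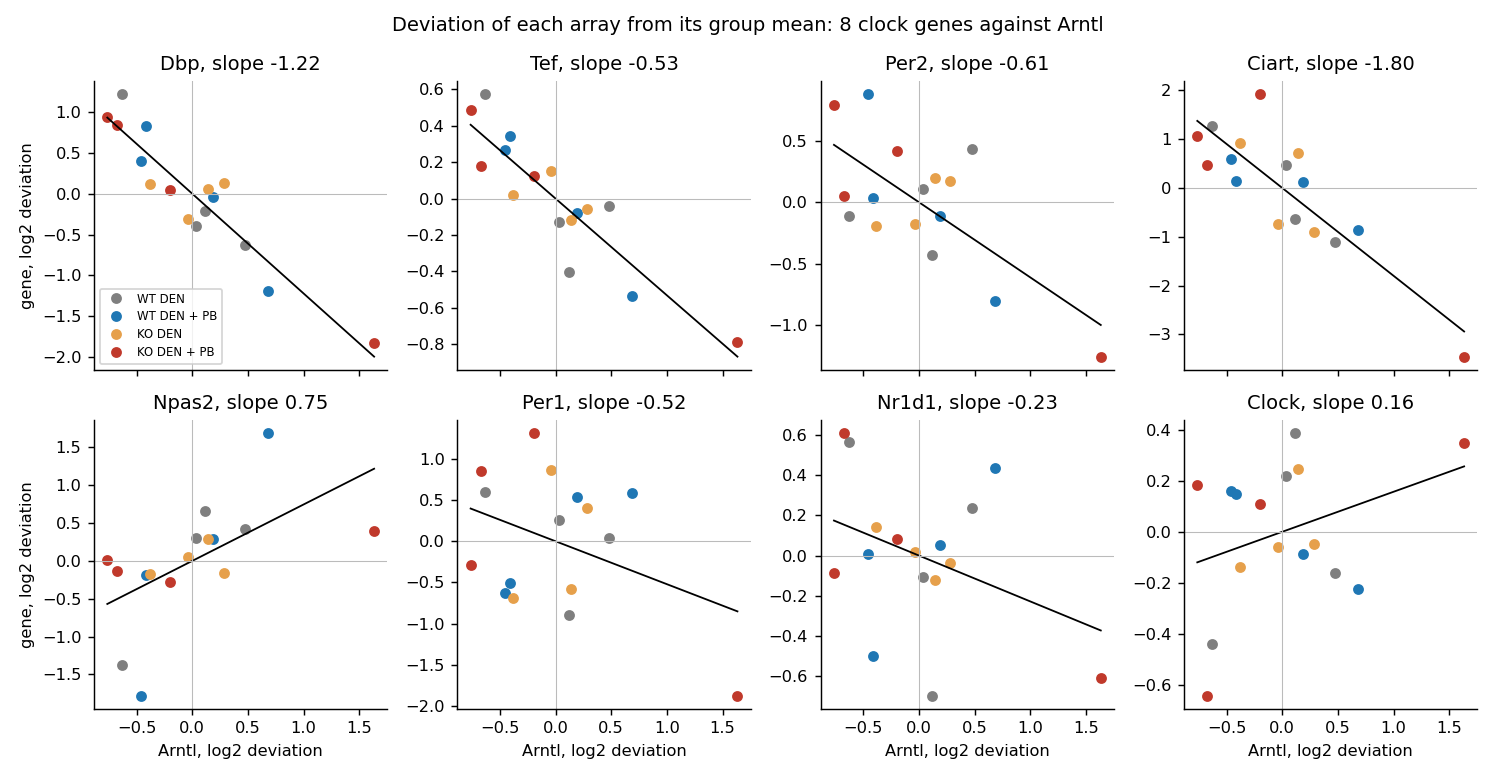
Log2 deviation of each array from its group mean for 8 clock genes (y axes) against that of Arntl (x axis), 16 arrays in 4 colours by group, with the slope fitted by limma. The fitted slope is -1.22 for Dbp, which passed, and -0.53 for Tef, which did not, and KO DEN + PB replicate 1 is the point at the right edge of each panel.

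As a description over the 16 arrays, which share their group and scale, the correlation of within-group deviations was -0.93 for Arntl with Dbp, -0.90 for Arntl with Tef and 0.91 for Dbp with Tef. Clock and Nr1d1 were at -0.89, and Per2 and Nr1d2 at 0.79. Nr1d1 and Nr1d2 were at -0.22. Outside the 10 genes, the 5 tested genes most like Arntl were Pdgfc, a growth factor, at 0.91, the kinase Grk5 at 0.86, Lnx2 at 0.85, Npr1, a natriuretic peptide receptor, at 0.83 and Abtb2 at 0.81. The 5 most opposed were Plac9a at -0.86, Ciart at -0.86, Arhgef40 at -0.85, Gdap10 at -0.85 and Ttc26 at -0.83. These genes are the extremes of all genes tested, and none was called on the slope (adjusted p = 0.117 to 0.767, limma). By rank their correlations were 0.73 to 0.87 and -0.82 to -0.59. All use the same Arntl deviations, in which KO DEN + PB replicate 1 lay farthest out.

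The PB difference in KO was also fitted with the Arntl signal as a covariate, which sets the groups side by side at an equal Arntl level. Dbp then differed by 1.84 ± 0.37 in place of 4.49 ± 0.55, and Tef by 0.22 ± 0.25 in place of 1.37 ± 0.27. Per2 went from 1.31 to -0.02, Per1 from 1.5 to 0.36 and Npas2 from -2.24 to -0.62. Nr1d1 went from 1.78 ± 0.27 to 1.29 ± 0.44, and Nr1d2 from 0.94 ± 0.20 to 0.53 ± 0.31. These values depended on KO DEN + PB replicate 1. Without it the differences at an equal Arntl level were 3.81 ± 1.27 for Per1, 2.12 ± 1.10 for Npas2, 0.85 ± 0.86 for Per2, 1.29 ± 0.67 for Dbp, 2.08 ± 0.77 for Nr1d1, 0.41 ± 0.58 for Nr1d2 and -0.05 ± 0.46 for Tef. Per1 and Npas2 thus had no settled value at an equal Arntl level, and the KO groups did not overlap in Arntl with or without that array. Cyp2b10, read as a gene outside the loop, was 6.80 without and 7.19 with the covariate. For KO against WT under DEN, Dbp went from -3.41 ± 0.55 to -2.83 ± 0.24, and Nr1d1 from -1.66 to -1.56.

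**Figure D4:**
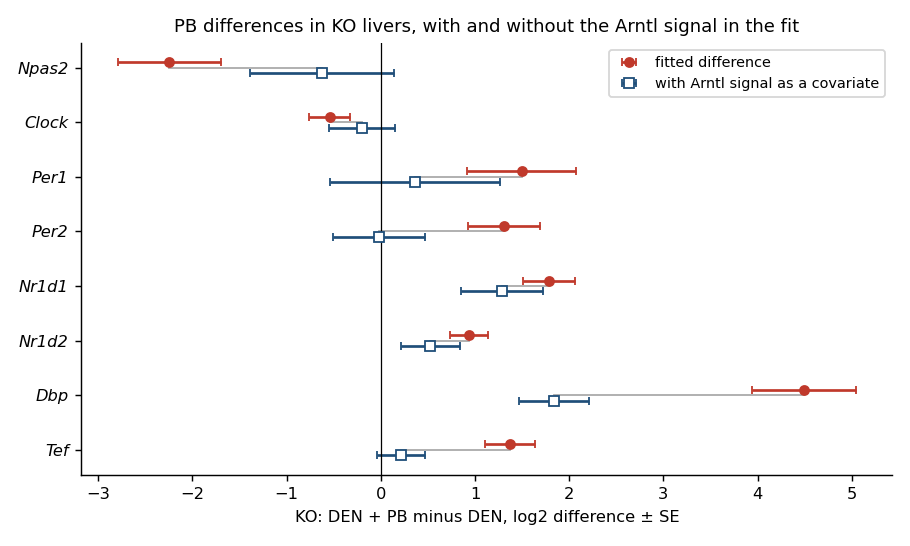
Fitted log2 difference ± SE between KO DEN + PB and KO DEN (x axis) for 8 clock genes, from the fit with 4 group means (circles) and with the Arntl signal added as a covariate (squares), 16 arrays. Per2 moves from 1.31 to -0.02 and Dbp from 4.49 to 1.84, and Nr1d1 from 1.78 to 1.29, with all 16 arrays in the fit.

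A further 22 genes of the clock loop, none of them among the 10, were read for comparison, and 19 were tested. For PB in KO, 1 rose and 1 fell, against 2.12% of all genes called. For PB in WT 0 passed, against 0.737%, with 0 at an unadjusted p under 0.05. Ciart, an E-box driven repressor of the loop, read -5.32, -5.12, -6.94 and -6.77 in KO DEN, against -5.40, -1.48, -0.87 and -0.02 in KO DEN + PB. It rose by 4.10 ± 0.88 (adjusted p = 0.0219, limma; 0.000191 to 0.483 over 26 alternatives). The groups overlapped only through KO DEN + PB replicate 1, without which the rise was 5.25 (adjusted p = 0.000191, limma), and leaving out 1 array at a time the call was lost without KO DEN replicate 3 or 4 or KO DEN + PB replicate 2, 3 or 4 (adjusted p = 0.0646 to 0.0764, limma). Ciart was above background on only 1 of 4 KO DEN arrays, and under normexp the difference was 1.32.

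Cry1, which encodes a repressor that peaks late in the cycle, fell by 1.43 ± 0.25 with PB in KO (adjusted p = 0.0066, limma; 0.00295 to 1 over 27 alternatives). It read -2.03, -2.73, -2.32 and -2.21 in KO DEN, against -3.38, -4.25, -4.02 and -3.37 in KO DEN + PB, with no overlap, and in WT it differed by -0.35 ± 0.25. The second Cry1 probe gave -1.39 ± 0.40 in KO. Under normexp the Cry1 difference was -0.26.

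Nfil3, the repressor that competes with DBP at D-boxes, differed by -1.0 ± 0.29 with PB in KO (adjusted p = 0.102, limma), Usp2, a clock-driven protease, by 2.76 ± 0.76 (adjusted p = 0.082, limma), and Cry2 by 0.56 ± 0.29. Without KO DEN + PB replicate 1 both Nfil3 and Usp2 passed, at adjusted p = 0.025 and 0.0203 (limma). Hlf, the remaining relative of DBP, differed by 0.38 ± 0.17.

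For the difference between the PB effects 0 of the 19 passed (3 at an unadjusted p under 0.05), for KO against WT under DEN 0 (5), and for the slope on Arntl 0 (6). Of all genes, 0%, 2.73% and 0.00752% passed in the same order. Ciart had the steepest slope among them, -1.80 ± 0.29 (adjusted p = 0.117, limma). For KO against WT under DEN + PB, Sirt1, a deacetylase that acts on clock proteins, was 1.19 ± 0.33 higher (adjusted p = 0.0399, limma; 0.0184 to 0.266 over 27 alternatives), while its other probe gave -0.05 ± 0.14 (adjusted p = 0.882, limma).

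Of 18 genes that the clock is known to drive in liver, all tested, 5 were called higher with PB in KO and 1 in WT. An unadjusted p under 0.05, in either direction, was reached by 11 in KO and by 8 in WT. Of all genes, 1.26% were called higher with PB in KO, and 0.737% were called in either direction in WT. Por, the electron donor of cytochromes P450, rose in both, by 0.89 ± 0.19 in WT (adjusted p = 0.0341, limma; 0.00273 to 1 over 27 alternatives) and 1.09 ± 0.19 in KO (adjusted p = 0.00505, limma; 0.000927 to 0.312). Alas1, the first enzyme of heme synthesis, rose in KO by 1.69 ± 0.40 (adjusted p = 0.0427, limma; 0.0119 to 0.335), and in WT it differed by the same 1.69 ± 0.40 (adjusted p = 0.0814, limma). Cyp2a4, a steroid hydroxylase, rose in KO by 0.89 ± 0.20 (adjusted p = 0.0292, limma; 0.00348 to 0.39) and differed in WT by 0.84 ± 0.20. The Cyp2a4 value depended on the probe: a second gave 2.33 ± 0.23 with PB in WT (adjusted p = 2.59e-05, limma) against 2.06 ± 0.23 in KO (adjusted p = 9.03e-05, limma), and the remaining one 0.69 ± 0.26 against 0.48 ± 0.26, neither called. Cyp2a5 is a near-identical copy, so which of both genes was measured is uncertain. As background, PB induces Por and Alas1 through CAR.

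Upp2 and Wee1 were the other two. Upp2, a uridine phosphorylase, rose in KO by 1.70 ± 0.33 (adjusted p = 0.0123, limma; 0.00389 to 0.148 over 27 alternatives), and in WT it differed by -0.04 ± 0.33. Wee1, a cell cycle kinase with E-boxes in its promoter, rose in KO by 1.36 ± 0.33 (adjusted p = 0.0423, limma; 0.0034 to 1 over 26 alternatives), and in WT differed by 0.96 ± 0.33. In KO against WT it differed by -1.45 ± 0.33 under DEN (adjusted p = 0.0255, limma) and by -1.05 ± 0.33 under DEN + PB (adjusted p = 0.0638, limma). Wee1 was above background on only 1 of 4 KO DEN and 3 of 4 KO DEN + PB arrays, and under normexp its difference in KO was 0.36. The difference between the PB effects passed for none of the 18 (4 at an unadjusted p under 0.05).

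Markers of other cell types were read beside these values. For PB in KO, where the clock genes differed most, 0 of 5 hepatocyte, 0 of 4 leukocyte, 0 of 4 endothelial, 0 of 4 stellate and 0 of 4 biliary markers tested passed, against 2.12% of all genes. All 4 endothelial, 4 leukocyte, 4 stellate and 4 biliary markers nevertheless had differences below 0. An unadjusted p under 0.05 was reached by 3 endothelial, 1 stellate, 1 biliary and 0 leukocyte markers. The summed hepatocyte signal was 9.998 to 10.14 in KO DEN, against 9.965 to 10.36 in KO DEN + PB on the log2 scale. For KO against WT under DEN, 2 of 4 leukocyte markers (Adgre1 at -1.94 ± 0.33 and Cd68 at -1.35 ± 0.20) were called lower, against 1.71% of all genes. The others were not called: Ptprc was at -0.53 ± 0.27, and Cd3e went the other way at 0.18 ± 0.26. The summed signal of the 5 leukocyte markers was 2.73 to 4.1 in WT DEN and 1.52 to 1.91 in KO DEN. Adgre1 was the brightest of them in WT DEN, so the sum does not stand for leukocytes in general. Of 4 endothelial markers 1 was lower (Pecam1, at -0.67 ± 0.16, adjusted p = 0.0359, limma), with a summed signal of 3.75 to 4.00 in WT DEN and 3.28 to 4.04 in KO DEN. None of the 5 leukocyte markers was below background on all arrays of either group. The part of cell makeup in the clock values of both comparisons was not tested, and in whole liver fewer cells and less RNA per cell cannot be told apart.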

How the data were processed

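Liver RNA of 16 mice was measured on 16 Agilent arrays. The deposited scanner files (Feature Extraction 12.0.3.1) hold the processed signal, an intensity on a linear scale that the authors' software corrected for background, with no scaling between arrays. The deposited series table holds the same intensity without scaling. The columns held no mean signal, so normexp was run on the median signal instead, a change made after seeing the files. Outlier spots (71 to 122 per array) were left out, and the array's 75th percentile (137 to 294) was subtracted after taking log2. Of the probes, 24457 (59.4%) were tested, and 58.3% to 67.7% of spots per array were well above background. The number of arrays limits the precision. Accessions gave a symbol to 28223 probes (68.5%).

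Group means were fitted with limma 3.58.1 in R 4.3.3 over all 16 arrays, p was adjusted by Benjamini-Hochberg over all probes tested, and a call needed an adjusted p under 0.05 and a 1.5-fold change, with no fold threshold for the slope. A bound divides the brighter mean by that of, per array, the lowest signal above background or the probe's own if higher. Members and lists were chosen with earlier results of these data known. The text names all members, a fixed set of loop genes and any other loop gene called, clock-driven liver genes called with PB in either genotype, the 5 genes most like and most opposed to Arntl, and Gadd45b and Cyp2b10. Of the loop genes, 2 are not reported here. Usp2 and the called marker and glucocorticoid or feeding genes were named after their values were seen. On simulated data with a log2 change of 2, 93.5% (PB in WT) and 91.5% (PB in KO) of 200 changed probes were recovered, and 91.5% for a slope of 1.2. Smaller changes, such as the members' PB differences in WT of at most 0.46, were not simulated. Neither were smaller slopes or the difference between the PB effects, so the recovery says nothing about those that were not called. The simulated noise was independent between probes, unlike variation that probes share on real arrays. The slope was simulated on the measured Arntl deviations, KO DEN + PB replicate 1 included. Its recovery therefore does not carry over to fits without that array.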

Additional observations from a re-analysis of the deposited data

How the results depend on the processing

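Members called for PB in KO, 6 here, came to 5 with the replicate block, 3 in the series table without scaling and 3 under normexp, and to 4 to 7 leaving out 1 array at a time. For KO against WT under DEN, 2 became 1 in that table and under normexp. Under DEN + PB the count ran from 0 to 3, and for the difference between PB effects from 0 to 1, leaving out 1 array at a time, the higher value in both without KO DEN + PB replicate 1. For PB in WT it was 0 throughout. The replicate numbers do not pair the mice: deviations of arrays with the same number correlated from -0.211 to 0.352.

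The slope on Arntl called 0 members and 0 genes under median centring, under normexp, with slide as a block and without the 2 arrays farthest in Arntl, and 2 members, 5 other loop genes and 1140 genes in all in the series table without scaling. Leaving out 1 array it called 0 to 1 members, 0 to 1 other loop genes and 0 to 2 genes in all. Slopes that turned were Per1 at 0.018, Nr1d1 at 0.16 and Nr1d2 at 0.14 in the unscaled table, Per1 at 0.48 without the 2 farthest arrays, and leaving out 1 array, when Per1 ran from -0.70 to 0.62 and Nr1d1 from -0.34 to 0.035, both turning without KO DEN + PB replicate 1, and Npas2 at -0.29 under normexp and -0.081 under normexp with marked backgrounds replaced. The Npas2 difference for PB in KO turned to 0.071 and 0.056 under the same normexp settings. Both normexp settings, and the fit at an equal Arntl level without KO DEN + PB replicate 1, were chosen after seeing the data, and the planned normexp on the mean signal was not run.

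Other loop genes called for PB in KO, 2 here, were 0 under normexp, 1 with marked backgrounds replaced, 1 with no filter, 1 with only probes above background on all arrays, 1 without moderation, 1 with only the 8 arrays compared, and 1 to 4 leaving out 1 array. For KO against WT under DEN, 0 became 1 with marked backgrounds replaced, with the replicate block and with only 8 arrays, and 0 to 1 leaving out 1. Under DEN + PB, 2 became 1 under median centring, without moderation, with only 8 arrays and with marked backgrounds replaced, 0 in the unscaled table, under normexp, with no filter and with slide as a block, and 0 to 2 leaving out 1.

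Clock-driven liver genes called for PB in WT, 1 here, were 2 under quantile normalization, 4 with marked backgrounds replaced, 0 under median centring, normexp, no filter, either block, no moderation or only 8 arrays, and 0 to 2 leaving out 1. In KO, 5 became 0 in the unscaled table and under normexp, 8 with marked backgrounds replaced, 2 with no filter or no moderation, 3 with the replicate block or only 8 arrays, and 2 to 6 leaving out 1. The unscaled table moved the median of all probes by -0.295 for PB in KO, -0.286 for KO against WT under DEN + PB and 0.372 for the difference of PB effects. Beyond that the cause was not tested. Signals near background limit Npas2, Per3, Ciart and Wee1.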

Other observations

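Of the genes that respond to glucocorticoids and feeding, 11 were tested. For PB in KO 0 were called higher and 1 lower (Srebf1, at -0.94 ± 0.21, adjusted p = 0.0271, limma). For PB in WT 0 were called, and 0 for KO against WT under DEN. An unadjusted p under 0.05 was reached by 6 of the 11 for PB in KO and by 0 for PB in WT. For KO against WT it was reached by 2 under DEN and by 4 under DEN + PB. In KO against WT under DEN + PB 2 were higher, Tsc22d3 at 1.31 ± 0.26 (adjusted p = 0.00566, limma) and Tat at 0.67 ± 0.19 (adjusted p = 0.0422, limma), and 1 was lower, Sgk1 at -1.08 ± 0.27 (adjusted p = 0.0245, limma). Of 6 temperature-responsive genes 0 were called in any comparison. Of all genes, 2.12% were called for PB in KO, 0.737% for PB in WT, 2.73% for KO against WT under DEN and 7.55% under DEN + PB. Both lists hold genes that also vary over the day.

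No group of 4 arrays among the 64 examined, from 16 clock genes, held a value far enough from the other 3 to pass Dixon's 95% limit.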
